A study of Mus musculus with 15 samples.

Results

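HITS-CLIP sequences the RNA that is crosslinked by UV light to a protein and recovered with an antibody against it. Of the 29715 peaks of Sfpq in P19 cells, 3962 (13.3%) carried the location Intergenic in the authors' annotation, and these 3962 peaks were selected by that location alone and are described here. P19 is a mouse embryonal carcinoma line, and Sfpq was recovered from it with a mix of 2 antibodies. Its cells were transfected with a control siRNA (Sfpq CLIP, control) or with siRNA against Sfpq (Sfpq CLIP, siSfpq), and the Sfpq list holds the peaks that dCLIP, a program for differential binding, found to differ between both merged conditions with a score above 7. Ago2 CLIP was done in cells given a let-7a mimic, siSfpq, or siSfpq with the let-7a mimic. Each of the 5 groups had 3 replicates (15 libraries), which were merged before peaks were called, so the lists hold 0 values per sample and neither depth nor replicate spread can be given. The control Ago2 list comes from libraries not analysed here. P-values therefore compare peaks of merged lists and not cultures, and neighbouring peaks of 1 transcript are not independent.

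Sfpq is a nuclear RNA- and DNA-binding protein of the DBHS family. With Nono and Pspc1 it is a component of paraspeckles, nuclear bodies built on the long non-coding RNA Neat1, and it takes part in splicing, transcription and RNA retention in the nucleus. Ago2 is the Argonaute protein that carries microRNAs to their target RNAs.

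The highest-scoring peaks of some of the largest clusters, and of the overlap with Ago2, show some of the kinds of RNA in the intergenic class. None of those printed lies in a RefSeq 3' UTR or pseudogene, places that held 548 and 853 peaks. The sequences are those of mm10 (GRCm38, RefSeq) on the strand of the peak, and capitals mark CTGT, CTGA and NTGTA, the DNA letters of the RNA words CUGU, CUGA and NUGUA that the methods of the study name for Sfpq.
Gnasas1 cluster, chr2:174278955-174279014, minus strand: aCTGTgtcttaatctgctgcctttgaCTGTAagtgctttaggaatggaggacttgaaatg
Neat1 cluster, chr19:5825615-5825669, minus strand: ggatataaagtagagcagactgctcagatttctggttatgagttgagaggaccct
Oip5os1 cluster, chr2:119603420-119603604, plus strand: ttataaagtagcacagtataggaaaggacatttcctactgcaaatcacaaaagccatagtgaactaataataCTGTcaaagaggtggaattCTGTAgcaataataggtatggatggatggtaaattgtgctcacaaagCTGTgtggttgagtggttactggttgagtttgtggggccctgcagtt
Rbm4 cluster, chr19:4777710-4777799, minus strand: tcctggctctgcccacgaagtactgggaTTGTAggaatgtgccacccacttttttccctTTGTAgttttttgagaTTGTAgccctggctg
Gm38469 cluster, chr15:96279650-96279699, minus strand: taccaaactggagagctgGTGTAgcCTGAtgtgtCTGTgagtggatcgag
Rny1, chr6:47788065-47788169, minus strand: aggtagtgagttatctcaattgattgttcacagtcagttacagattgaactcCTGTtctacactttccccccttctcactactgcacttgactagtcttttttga
Rny3, chr6:47781620-47781729, plus strand: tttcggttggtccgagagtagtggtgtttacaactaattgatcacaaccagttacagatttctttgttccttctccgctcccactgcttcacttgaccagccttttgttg
mitochondrial copy, chr1:24615105-24615139, minus strand: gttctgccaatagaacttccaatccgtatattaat
soft-masked repeat, chr13:113721135-113721339, plus strand: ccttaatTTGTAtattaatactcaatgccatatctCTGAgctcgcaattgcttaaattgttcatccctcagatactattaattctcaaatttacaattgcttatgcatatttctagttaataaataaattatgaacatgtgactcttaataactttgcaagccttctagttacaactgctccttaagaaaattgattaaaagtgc
The first 5 sequences came from large clusters next to or inside Gnasas1 (an antisense RNA of the imprinted Gnas locus), Neat1, Oip5os1 (a long non-coding RNA), Rbm4 (an RNA-binding protein) and Gm38469. Rny1 and Rny3 encode Y RNAs, small cytoplasmic RNAs bound by the Ro protein, and their peaks of 105 and 110 nt covered most of each gene. The 35 nt of the mitochondrial copy are letter for letter those of the mitochondrial genome at positions 7439 to 7473, in the gene of cytochrome c oxidase subunit 2. The last sequence, of 205 nt, was soft-masked as repeat over its whole length.

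The label Intergenic did not hold for many of the peaks when they were placed on the RefSeq annotation of the same genome build. Of the 3962 peaks, 2132 (53.8%, 95% Wilson interval 52.3 to 55.4) lay inside a RefSeq gene on the same strand, and 1955 (49.3%) lay inside a gene of GENCODE M21. In 1 or the other annotation 2517 peaks (63.5%) were within a gene. The peaks are therefore called by the location that the authors' list gives them, which need not mean that the sequence lies outside genes.

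Pseudogenes held 853 peaks (21.5%, 20.3 to 22.8) in 472 genes, and 3' UTRs of protein-coding genes held 548 (13.8%, 12.8 to 14.9) in 124 genes. Another 442 peaks (11.2%) lay within 5000 nt past the 3' end of a gene on the same strand, at a median of 1974 nt, and 118 (2.98%) within 5000 nt before a 5' end. Introns of protein-coding genes held 259 peaks (6.54%), long non-coding RNA (lncRNA) genes 210 (5.30%) in 55 genes, and small RNA genes 156 (3.94%) in 154 genes. Opposite a gene on the other strand lay 117 peaks (2.95%). The remaining class of size was 1153 peaks (29.1%, 27.7 to 30.5) with no RefSeq gene on their strand within 5000 nt and none opposite them. GENCODE M21 put 133 of these inside a gene.

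**Figure D1:**
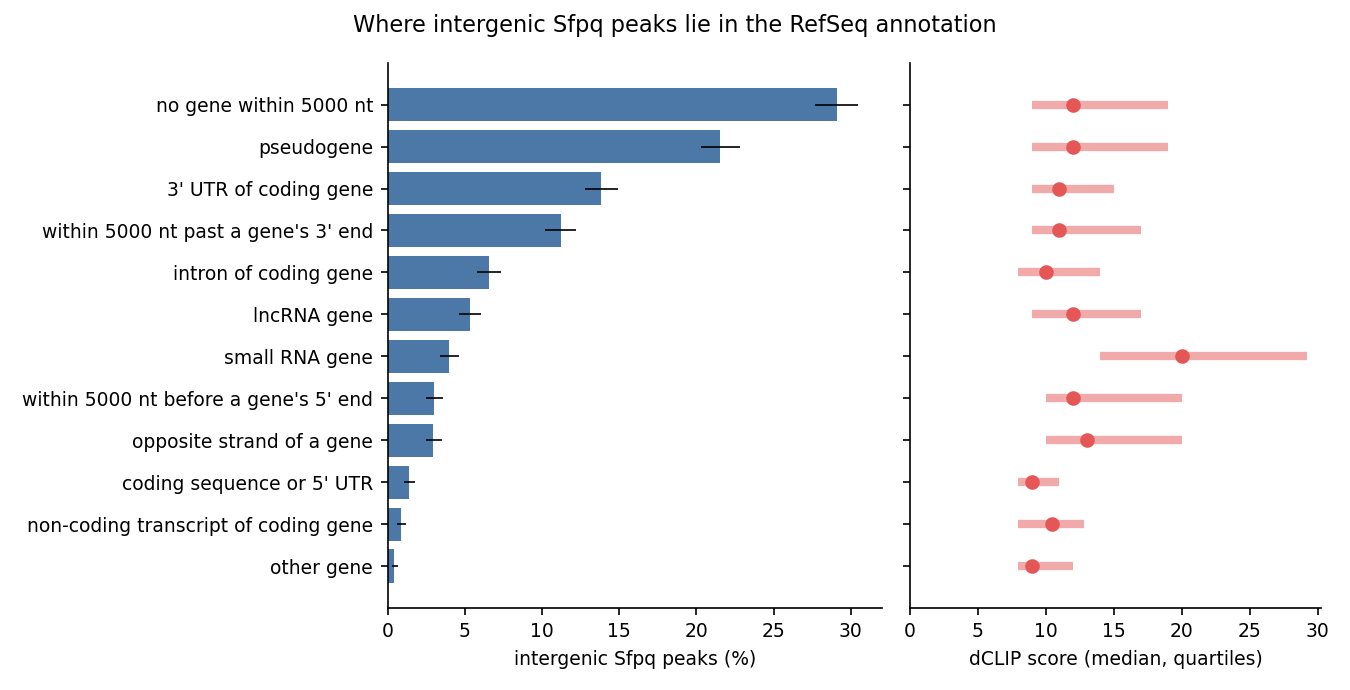
Left, the percent of the 3962 intergenic Sfpq peaks in each place of the RefSeq annotation, with 95% Wilson intervals as bars; right, the median dCLIP score (point) and its quartiles (line) in each place. Peaks with no RefSeq gene on their strand within 5000 nt and none opposite them were the largest class at 29.1%. Peaks in small RNA genes had the highest median score, 20.

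The scores of the intergenic peaks ran from 8 to 1684 with a median of 12 (quartiles 9 and 18), and their lengths from 10 to 1335 nt with a median of 50 nt (quartiles 35 and 75). By place, the median score lay between 9 and 13 except in small RNA genes, where it was 20 (quartiles 14 and 29.2). In the whole Sfpq list the median score was 11. Above it lay 52.4% of the intergenic peaks, against 32.1% of the intronic peaks (odds ratio 2.33, 95% interval 2.16 to 2.52, two-sided Fisher's exact test, p-values adjusted by Benjamini and Hochberg over 6 tests, adjusted p = 8.98e-102). The share was 50.8% in 3' UTRs (odds ratio 1.07, 0.990 to 1.15, exact adjusted p = 0.113) and 47.1% at transcription termination sites (TTS; odds ratio 1.24, 1.09 to 1.41, exact adjusted p = 0.00116). The difference from TTS peaks did not pass the test among peaks scoring at least 14 (exact adjusted p = 0.267) or without peaks made up of repeated words (exact adjusted p = 0.189). Lengths above the list median of 55 nt were less frequent among intergenic peaks (39.8%) than among 3' UTR peaks (58.4%, odds ratio 0.471, 0.435 to 0.509, exact adjusted p = 8.43e-82) or TTS peaks (51.4%, odds ratio 0.625, 0.551 to 0.709, exact adjusted p = 5.89e-13). Against intronic peaks (40.8%) the odds ratio for length was 0.960 (0.888 to 1.04, exact adjusted p = 0.297), and without peaks made up of repeated words it was 1.18 (exact adjusted p = 0.00121).

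The highest-scoring peaks resembled mitochondrial RNA. Of the 10 highest, 8 held at least 1 word of 25 nt that also occurs in the mitochondrial genome, as did 17 of the 30 highest and 102 of the 3624 peaks long enough to test. The median score was 26.5 in these 102 peaks and 12 in the rest. In the regions concerned the nuclear genome holds copies of mitochondrial DNA. Whether reads that match in several places were kept is not given in the sources used here, so reads of mitochondrial RNA and of the nuclear copies cannot be told apart.

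On chromosome 1, all 25 peaks between 24611525 and 24616189 held such words, and 98.5% of the words in them matched the mitochondrial genome. The minus strand carried 12 peaks with scores up to 1684, and the plus strand 13 peaks with scores up to 196. The 5 highest peaks of the minus strand matched the strand of the mitochondrial genome that reads as the mRNAs of cytochrome oxidase and ATP synthase subunits. The peak scoring 1684 matched Cox2, the peak scoring 790 the stretch from Cox1 to Cox2, and the peak scoring 560 the stretch from Cox2 to Atp6. In 3 further regions some peaks held no such word. On chromosome 2, opposite Myo3a on the minus strand and along it on the plus strand, 22 of 25 peaks held one (scores up to 373), on chromosome 4 18 of 26 (up to 275) and on chromosome 13 10 of 11 (up to 190). On chromosomes 12 (scores up to 230) and 5 (up to 27) it was 4 of 4 peaks each. On the mitochondrial genome itself the list gave 79 Sfpq peaks with no location, with scores from 9 to 1502 and a median of 139.

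Small RNA genes also held high scores. The Rny1 peak scored 449 and the Rny3 peak 187, the highest among small RNA genes. Transfer RNA genes held 92 peaks in 90 genes, with a median score of 21 and a highest score of 108 at n-THgtg10, a histidine tRNA. Small nuclear RNA (snRNA) genes held 59 peaks in 59 genes, 50 of which were annotated as U6 spliceosomal RNA with a median score of 18.5. U6 is the spliceosomal snRNA with many near-identical copies, so the gene of origin is uncertain. In U4 genes 2 peaks scored 95 and 77, and 1 peak lay in Rnu1b2, a U1 gene, with a score of 96. Among the 2794 RefSeq genes of snRNA, snoRNA, rRNA, tRNA, 7SK and 7SL, 239 had an intergenic Sfpq peak within 5000 nt on the same strand (8.55%), against 2.04% of protein-coding genes, 1.04% of lncRNA genes and 2.52% of microRNA genes (31 of 1228). These shares count only peaks labelled Intergenic, so peaks that the authors' list gave to genes are left out of them. Neighbouring tRNA genes also share peaks, and a peak counts for each gene near it. No peak lay inside a microRNA gene. Upstream of Mirlet7a-1 and Mirlet7f-1 on chromosome 13, 4 peaks scored 8 to 18 with a median of 9.

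Intergenic peaks were soft-masked more often than intronic, 3' UTR and TTS peaks, the locations compared. At least 50% of the bases were soft-masked in the reference in 30.7% of them. The share was 15.4% of intronic peaks (odds ratio 2.43, 2.22 to 2.66, two-sided Fisher's exact test, adjusted p = 8.09e-82), 6.47% of 3' UTR peaks (odds ratio 6.40, 5.73 to 7.16, adjusted p = 1.14e-257) and 8.50% of TTS peaks (odds ratio 4.77, 3.88 to 5.87, adjusted p = 9.95e-67). The masked share was 62.9% where no gene was near (725 of 1153 peaks), 62.4% opposite a gene (73 of 117) and 36.5% in small RNA genes, against 8.39% (46 of 548) in 3' UTRs and 7.97% (68 of 853) in pseudogenes.

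Words of 25 nt taken every 5 nt along each peak were looked up in the nuclear genome. In 1706 of 3624 intergenic peaks (47.1%) every word occurred at least once more, against 8.65% of intronic, 2.65% of 3' UTR and 5.23% of TTS peaks. By place the share was 78.1% in pseudogenes and 62.9% where no gene was near, but 2.71% in the peaks that RefSeq puts in 3' UTRs. For the repeated peaks the place in the list is 1 of several that the sequence allows.

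Many of the repeated peaks were copies of each other. Joined by any shared 25 nt word in the sense of the peak, 1037 peaks (26.2%) fell into 174 families of 2 or more, and 11 families of 10 or more held 584 peaks. The largest had 268 peaks on all 21 chromosomes, every one of them soft-masked, with a median score of 17 and a highest of 157. The second had 115 soft-masked peaks on 20 chromosomes with scores up to 33. The U6 family followed with 49 peaks on 19 chromosomes. The soft-masked repeat printed above, with a score of 233, was the highest-scoring of a family of 33 peaks on 14 chromosomes. The files used here do not name these repeats.

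The peaks were not evenly spaced. With peaks on the same strand joined across gaps of at most 5000 nt, the 3962 peaks formed 1779 clusters, of which 1128 (63.4%) were single peaks and 651 held 2 or more. The 651 held 2834 peaks (71.5%), and 48 clusters of 10 or more held 791 peaks (20.0%). For comparison, clusters of 2 or more held 78.6% of intronic, 89.1% of 3' UTR and 56.4% of TTS peaks. Only peaks of the same location were joined, so a run of peaks was cut where the label changed. These shares therefore depend partly on the labels and not only on the spacing. Single peaks had a median length of 40 nt and a median score of 11. Peaks in clusters of 10 or more had medians of 70 nt and 13.

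**Figure D2:**
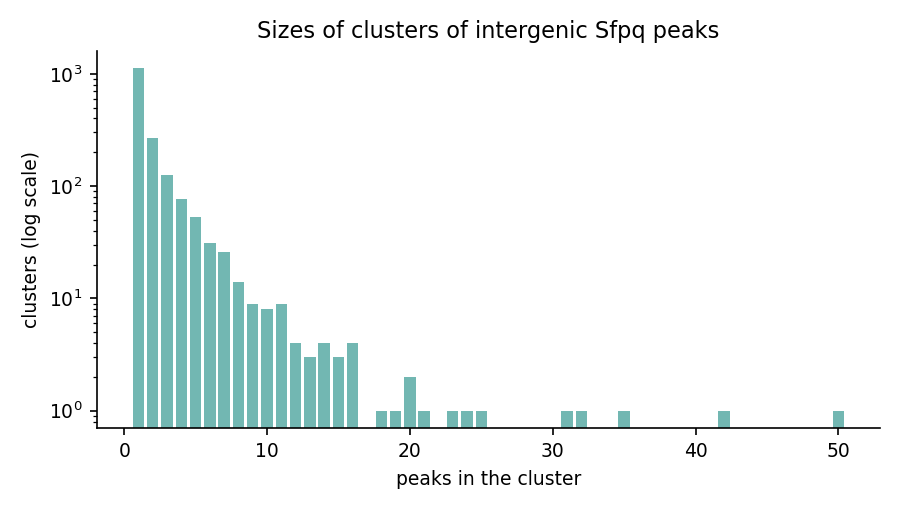
Number of clusters (log axis) by the number of intergenic Sfpq peaks in them. Single peaks make up 1128 of 1779 clusters, and 11 clusters hold 20 peaks or more, the largest 50.

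The largest cluster, with 50 peaks over 15930 nt at chr19:4767290-4783219 on the minus strand, began 1073 nt past the 3' end of Rbm4, a regulator of splicing and translation. Its scores ran from 8 to 37 with a median of 10.5. RefSeq places all 50 peaks in an intron of Gm21992, a gene model that spans the region. The nearest gene peak, 65 nt away, belonged to the TTS of Rbm4.

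The second, with 42 peaks at chr2:174268710-174280099 on the minus strand, began 1137 nt past Gnasas1, and its scores ran from 8 to 41 with a median of 11.5. No RefSeq or GENCODE gene was annotated under these peaks on that strand. The microRNA gene Mir298 lies past the far end of the cluster, and 16 peaks were within 5000 nt of it. Gnasas1 itself had 23 listed peaks with a gene name, 125 nt away at the nearest.

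Next came Neat1, the RNA on which paraspeckles form. Its 35 intergenic peaks at chr19:5825045-5841269 on the minus strand had scores from 8 to 17 with a median of 12 and lengths from 15 to 220 nt. All 35 lay in the exon of the long Neat1 transcript in RefSeq, while 12 further Sfpq peaks carried the name Neat1 in the list. Peaks covered 20.9% of the 16225 nt between the first and the last.

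Of the 11 clusters with 20 peaks or more, 3 lay in annotated 3' UTRs. These were Hmbox1, a homeobox factor, with 32 peaks and a median score of 13, Acvr2b, an activin receptor, with 31 peaks and a median of 14 (range 9 to 57), and Ptar1 with 23 peaks and a median of 11. The Acvr2b peaks covered 43.9% of the span of 7545 nt. A cluster of 21 peaks at chr17:17521495-17526814 started 908 nt past the RefSeq 3' end of Lnpep, a membrane aminopeptidase. The GENCODE M21 model of Lnpep overlaps this cluster, and the nearest gene peak, at the TTS of Lnpep, lay 210 nt away. The Lnpep cluster had the highest median score among the 11, 21, and peaks covered 59.8% of its span. The RefSeq model of Oip5os1 was followed after 1413 nt by 20 peaks with a median score of 13. Their span overlaps a lncRNA that GENCODE M21 names 1700020I14Rik. Whether both names stand for 1 gene was not checked. Gm31340, a lncRNA, held 25 peaks in introns, and Gm38469 held 20. A cluster of 24 peaks on chromosome 10 lay 29708 nt past Akap12 and 35 nt from a listed peak at the promoter of Zbtb2, in the GENCODE lncRNA Gm21781.

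Snhg14, the long host transcript of snoRNAs at the imprinted Prader-Willi and Angelman region, had fewer but higher peaks. Its 18 intergenic peaks scored 8 to 158 with a median of 28, and 12 of them lay in 1 cluster around Snord64 with a median of 57. The highest of these, at chr7:59976110-59976994, was 885 nt long. Among the 23 nuclear lncRNAs found of 24 named, 3 had an intergenic Sfpq peak within 5000 nt (13%, against 1.04% of all lncRNA genes): Neat1, Snhg14 and Rian, a non-coding RNA of the imprinted Dlk1-Dio3 domain with 1 peak scoring 9.

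Of 25 pluripotency genes, 2 had such a peak (8%, against 2.04% of protein-coding genes). In RefSeq, Trim71, a let-7 target and RNA-binding protein of stem cells, was followed by 11 peaks between 1273 and 3873 nt past its 3' end. Their scores ran from 8 to 49 with a median of 32. The highest, 49 and 46, stood next to each other at 2318 and 2468 nt, and the lowest, 8, at 1443 nt. Of these 11 peaks 10 overlapped an intergenic Ago2 peak. The longer GENCODE M21 model of Trim71 overlaps the cluster that they form. The list gives 28 more Sfpq peaks to Trim71, 4 of them in the 3' UTR. The nearest of these, at the TTS, lay 80 nt from the cluster. Lin28b, an inhibitor of let-7 maturation, held 1 peak with a score of 14. Of 21 neural genes, Zic5 alone had peaks, 2 with scores of 8 and 9. Another 13 peaks began 1315 nt past the RefSeq 3' end of Ago2, with scores from 9 to 42 and a median of 18. The GENCODE M21 model of Ago2 overlaps their cluster. The list gives 29 more Sfpq peaks to the Ago2 gene, 21 of them in the 3' UTR. The nearest of these, at the TTS, lay 605 nt from the cluster.

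The 207 genes with peaks within 5000 nt past their 3' end included pseudogenes and small RNA genes. Of the 207, 74 (35.7%) also had a Sfpq peak listed with their name, and these 74 accounted for 232 of the 442 peaks. GENCODE M21 put 158 of the 442 inside a gene of the same name and 195 inside any gene. Names that differ between the annotations were not matched. Of the 124 genes with peaks in RefSeq 3' UTRs, 104 had a listed Sfpq peak of their own. The share of all genes with a listed Sfpq peak was not computed, so neither count can be read as high or low.

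Genes with many peaks in RefSeq 3' UTRs included Helz, an RNA helicase, with 16 peaks, a median score of 16 and 9 peaks on an Ago2 list, and Cdk6, a cyclin-dependent kinase of the G1 phase, with 16 peaks, a median of 9.50 and 2 on an Ago2 list. Mib1, a ubiquitin ligase of Notch signalling, had 14 peaks with a median of 19, of which 2 met an Ago2 list. Past RefSeq 3' ends, Appbp2 had 11 peaks with a median score of 13, of which 6 met an Ago2 list. Alyref, an mRNA export factor, had 10 with the same median, of which 0 did. Tnks, a tankyrase, had 7 with a median of 15. GENCODE M21 models of Appbp2 and Alyref overlap the clusters past these genes.

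Near microRNA genes the scores varied, against a median of 12 over all intergenic peaks. Mir298 had the most peaks within 5000 nt, 16 with a median score of 13. Mir130a had 8 peaks within 5000 nt with a median score of 13, and Mirlet7e, Mir99b and Mir125a shared 2 peaks scoring 8 and 9. On chromosome X, 2 peaks scoring 38 and 72 lay within 5000 nt of Mir883a, Mir742, Mir743 and Mir743b, and both met an Ago2 list. A peak within 5000 nt of Mir5103 scored 58, and it lay inside the tRNA gene n-TEttc1. Mir6936 had 5 peaks within 5000 nt with scores from 13 to 80 and a median of 18, of which 3 met an Ago2 list.

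The distance from an intergenic peak to the nearest Sfpq peak annotated to a gene, on the same strand, had a median of 190142 nt (quartiles 6981 and 761256). The median was 100742 nt with both strands searched and 311465 nt with every cluster counted once. Under 500 nt lay 117 peaks (2.95%), from 500 to 7000 nt 876 (22.1%), and beyond 7000 nt 2969 (74.9%). Of the 993 peaks at 7000 nt or less, the nearest gene peak was at a TTS for 712 and at a promoter for 164. Peaks beyond 7000 nt had a median length of 45 nt against 65 nt in both nearer classes, and 38.4% of them were soft-masked against 6.84% and 7.99%. The median score was 11 in both nearer classes and 12 beyond them.

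The distance followed the place. In RefSeq 3' UTRs 81.9% of the peaks were within 7000 nt of a gene peak, with a median of 2235 nt. Past a 3' end the share was 49.5% and in introns of protein-coding genes 30.9%. It was 0.821% in pseudogenes and 7.46% where no gene was near. The Intergenic label and the definitions of the places partly fix these distances, so the contrast was not tested.

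**Figure D3:**
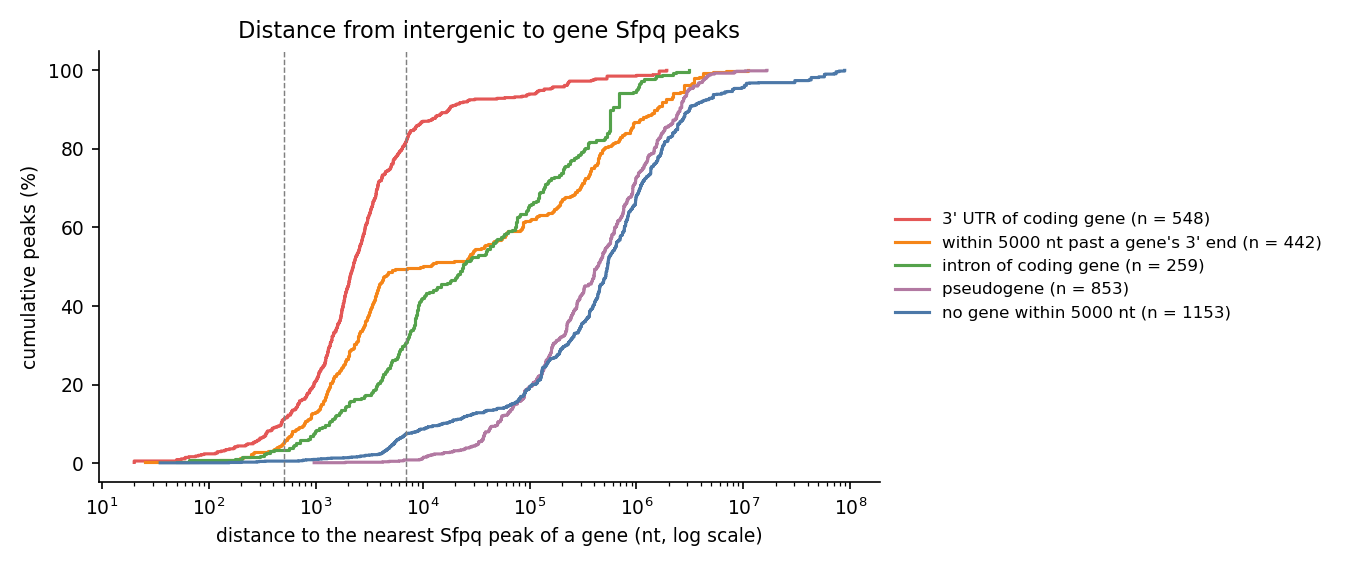
Cumulative percent of intergenic Sfpq peaks by distance to the nearest Sfpq peak of a gene (nt, log axis, same strand), for 5 places in the annotation; dashed lines mark 500 and 7000 nt. The 3' UTR curve lies leftmost, with 81.9% of peaks within 7000 nt, and the pseudogene curve has 0.821% there.

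Intergenic peaks were found on every chromosome, 1886 on the plus and 2076 on the minus strand. Their share by chromosome was compared with that of the 25667 Sfpq peaks of other locations, and 12 of 21 chromosomes passed the test (two-sided Fisher's exact test, Benjamini-Hochberg adjustment over 21), 7 with more and 5 with fewer intergenic peaks. Chromosome 11 had the lowest odds ratio, with 5.35% of the intergenic against 11.4% of the other peaks (odds ratio 0.438, 0.379 to 0.506, exact adjusted p = 2.09e-34). Chromosomes 16 (odds ratio 0.593, exact adjusted p = 1.79e-06) and 6 (0.691, exact adjusted p = 7.92e-06) followed. With every cluster counted once, 8 chromosomes passed, and chromosomes 16 (0.739, exact adjusted p = 0.122) and 6 (0.967, exact adjusted p = 0.848) did not. On the other side, chromosome 13 had 6.11% against 3.59% (odds ratio 1.75, 1.51 to 2.02, exact adjusted p = 7.30e-12), with chromosomes 7 (1.57, exact adjusted p = 2.86e-08) and X (1.56, exact adjusted p = 2.46e-07) next.

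Chromosome Y held 47 intergenic and 20 other peaks (odds ratio 15.4, 9.11 to 26.0, exact adjusted p = 2.56e-25). These 47 lay in 17 clusters, had a median score of 15, and 83.0% of them were soft-masked. On chromosome 19 (odds ratio 1.28, exact adjusted p = 0.00858) the Rbm4 cluster held 28.2% of the 177 peaks. Without that cluster the odds ratio was 0.919 (exact adjusted p = 0.442), and without peaks made up of repeated words it was 1.97 (exact adjusted p = 4.29e-11). Without peaks made up of repeated words the odds ratio of chromosome X was 1.11 (exact adjusted p = 0.485) and that of chromosome 3 was 0.883 (exact adjusted p = 0.391), from 1.21 (exact adjusted p = 0.0217) with them.

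**Figure D4:**
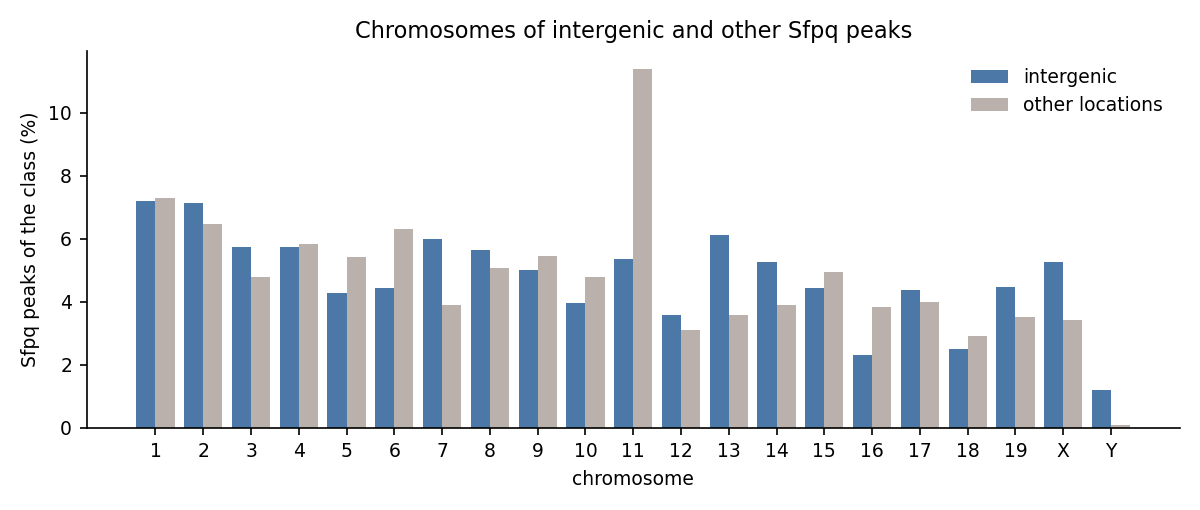
Percent of the 3962 intergenic Sfpq peaks and of the 25667 Sfpq peaks of other locations on each chromosome. Chromosome 11 holds 5.35% of the intergenic and 11.4% of the other peaks, chromosome 13 6.11% and 3.59%.

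Overlap with Ago2 was counted as at least 1 nt shared with an intergenic Ago2 peak on the same strand. It rested on 4 lists that were called in different ways and differ in size, so they are set side by side. The control and siSfpq lists hold peaks called within 1 condition. The let-7a list holds peaks that dCLIP found by comparing let-7a with control. The let-7a and siSfpq list holds those from comparing siSfpq and let-7a with let-7a alone. A place missing from these 2 difference lists can still be bound by Ago2. With the control list (751 intergenic peaks), 36 intergenic Sfpq peaks overlapped (0.909%, 0.657 to 1.26), against 1.07% of all Sfpq peaks with a control Ago2 peak of any location. With the let-7a list (525 intergenic peaks) the number was 87 (2.20%, 1.78 to 2.70), against 2.01% of all. With the list of let-7a and siSfpq (1342) it was 327 (8.25%, 7.44 to 9.15), against 11.9% of all, and with the siSfpq list (8659) it was 395 (9.97%, 9.08 to 10.9), against 19.7% of all.

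Seen from the Ago2 side, 4.66% of the control, 17.5% of the let-7a, 25.6% of the let-7a and siSfpq and 3.93% of the siSfpq intergenic peaks overlapped an intergenic Sfpq peak. Of these intergenic Ago2 peaks, 37 in the control list and 1 in the siSfpq list carried no strand. They could not count as overlapping but stayed in the totals. In all, 677 Sfpq peaks (17.1%, 15.9 to 18.3) in 377 clusters met at least 1 list. Of these, 527 met 1 list, 134 met 2, 14 met 3 and 2 met all 4. Peaks that met a list had a median score of 19 and a median length of 65 nt, against 11 and 45 nt in the rest. A longer peak has more room to overlap.

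The 2 peaks that met all 4 lists were the Rny1 peak and a peak with a score of 270 in the mitochondrial copy on chromosome 2. Rny3 met 3 lists and not the control list. Of the 102 peaks with mitochondrial words, 7 met the control, 17 the let-7a, 18 the let-7a and siSfpq and 7 the siSfpq list. On the mitochondrial genome the let-7a and siSfpq list has 77 Ago2 peaks and the other lists have 0. For the let-7a list, which holds differences, 0 does not mean that Ago2 was absent. The Snhg14 cluster met the let-7a and siSfpq list with 5 peaks and the siSfpq list with 6, and the other lists with 0.

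By place, the share that met a list was 27.2% in RefSeq 3' UTRs, 25% in small RNA genes, 24.3% in pseudogenes, 18.6% past a 3' end, 12.9% in lncRNA genes, 9.63% where no gene was near and 8.88% in introns of protein-coding genes. Of the 35 Neat1 peaks 10 met the siSfpq list and 1 the let-7a and siSfpq list. Of the 31 Acvr2b peaks 13 and 11 did so, and of the 16 peaks within 5000 nt past Lnpep 12 and 9. Of the 42 peaks past Gnasas1, 1 met each of these 2 lists. Of the 50 past Rbm4, 1 met the siSfpq list, 2 the let-7a list and 1 the control list. Among small RNAs, 31 of 92 peaks in tRNA genes met a list. Of the 50 in U6 genes 0 did, which allows a share of up to 6% for counting error only.

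Against Sfpq peaks of other locations, with Ago2 peaks of any location, 17.1% of the intergenic peaks overlapped at least 1 of the 4 lists, and 25.5% of all Sfpq peaks did. Intronic peaks overlapped in 4.19% (odds ratio 4.72, 4.12 to 5.40, two-sided Fisher's exact test, adjusted p = 9.00e-119). The intergenic share was lower than that in 3' UTRs (40.5%, odds ratio 0.303, 0.276 to 0.333, exact adjusted p = 2.14e-154) and at TTS (35.9%, odds ratio 0.369, 0.321 to 0.425, exact adjusted p = 1.65e-42).

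**Figure D5:**
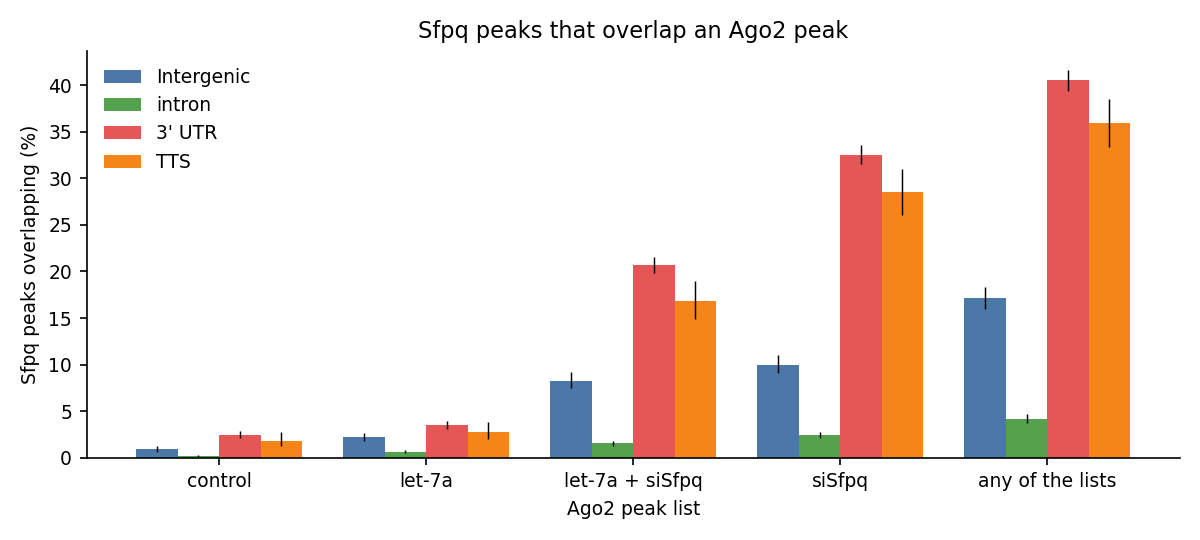
Percent of Sfpq peaks of 4 locations that overlap an Ago2 peak of any location on the same strand, for each Ago2 list and for any of them; bars are 95% Wilson intervals. With any list, the intergenic share of 17.1% lies between the intronic 4.19% and the 3' UTR 40.5%.

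The words named for Sfpq were denser in intergenic peaks than 500 nt away. The study derived these words by a motif search in the same Sfpq peaks, intergenic ones included. A higher density in the peaks is therefore no independent evidence of binding. CUGU or CUGA (searched as CTGT and CTGA on the strand of the peak, overlaps counted) occurred 1.43 times per 100 nt in peaks and 1.07 times in windows of the same length, a ratio of 1.33, and 53.3% of the peaks and 42.8% of the windows held at least 1. NUGUA (NTGTA) occurred 0.678 and 0.505 times per 100 nt, a ratio of 1.34, in 29.9% of the peaks and 23.1% of the windows. The ratios for CUGU or CUGA were 1.48 in introns, 1.27 in 3' UTRs and 1.30 at TTS, and for NUGUA 1.34, 1.46 and 1.70. These differences were not tested.

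The words also differed by place. Neat1 peaks held 1.97 CUGU or CUGA per 100 nt and Gm38469 peaks 1.89, while the Oip5os1 cluster held 1.33. For NUGUA the ratio of peaks to windows was 1.68 where no gene was near and 1.41 past a 3' end. It was 0.974 in the 923 peaks in exons of non-coding transcripts and pseudogenes. In coding sequence it was 1 and in 5' UTRs 0.700, but these places held only 23 and 32 peaks and few such words. The same 32 peaks had the highest ratio of any place for CUGU or CUGA, 2.12. The differences by place were not tested. The Neat1, Rny3 and mitochondrial sequences printed above hold none of the words, and the Gnasas1 sequence holds 2 and 1.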

How the data were processed

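Sfpq and Ago2 HITS-CLIP was analysed in P19 cells (15 libraries, 5 groups of 3 by their labels). The authors trimmed reads with cutadapt, mapped them to mm10 with STAR and then Bowtie2, merged replicates and called peaks; the sources used here name neither versions nor the program that gave the locations. The deposited Sfpq, let-7a and let-7a with siSfpq lists hold a dCLIP score per peak. The deposited control and siSfpq Ago2 lists hold a read count per peak (pyicoclip, at least 10). The 6 further deposited lists hold the authors' subsets of Ago2 peaks by distance to Sfpq, and no value of them is reported. There are 0 values per sample, so depth is unknown.

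Members are the peaks located as Intergenic. Peaks were read as closed intervals, placed on RefSeq GRCm38.p6 and GENCODE M21, joined into clusters at gaps of 5000 nt, and compared by two-sided Fisher's exact tests with Benjamini-Hochberg adjustment (scipy). Gene symbols of the list were updated through its RefSeq transcripts, which also restored 2 names turned into dates. A peak in several genes was placed in the order of 3' UTR, coding sequence, 5' UTR, exon, intron. Named genes are those nearest to the 10 largest clusters (11 with a tie), to the 10 highest peaks and to the 10 highest on Ago2, and members of gene lists near a peak; the Ago2 gene, other genes with many peaks and repeat families were added after values were seen. Members and lists were chosen with earlier results of these data known. Interval, overlap and count functions were tested on simulated data. Wilson intervals cover counting error only.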

Additional observations from a re-analysis of the deposited data

How the results depend on the processing

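No paired analysis was possible because the lists hold merged replicates and 0 values per sample, which also leaves no replicate to leave out and no depth. For 26 main results, 128 values were computed under alternatives, and 101 kept their test call or stayed within a set limit. For percents the limit was the counting interval, and for counts, medians and word ratios it was a fold change. The fall from 12 to 8 passing chromosomes with every cluster counted once was thus among the 101. Of the other 27, 23 moved, 2 were weaker, 1 was stronger and 1 reversed. Settings without repeated-word peaks and without mitochondrial words were chosen after seeing the data. The cause of each change was not tested.

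At a score of at least 14, 7 chromosomes passed the test, the peaks formed 851 clusters with 65.0% of peaks in clusters of 2 or more, the score odds ratio against 3' UTRs became 1.18 (exact adjusted p = 0.00949) and against TTS 1.14 (exact adjusted p = 0.267), and 245 peaks met the siSfpq list. With gaps of 1000 and 10000 nt, 62.6% and 73.0% of peaks were in clusters of 2 or more. Without repeated-word peaks the score odds ratio against TTS was 1.10 (exact adjusted p = 0.189), the length odds ratio against introns turned to 1.18 (exact adjusted p = 0.00121), that of chromosome 3 turned to 0.883, and 162 peaks met the let-7a and siSfpq list. Chromosome 19 turned to 0.774 with every cluster counted once, 0.965 at a score of at least 14 and 0.919 without its largest cluster, and rose to 1.97 without repeated-word peaks. With every cluster counted once 8 chromosomes passed, without chromosomes 6 (0.967) and 16 (0.739).

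The median distance was 100742 nt on either strand and 311465 nt with every cluster counted once, when 3.77% lay under 500 nt and 87.9% beyond 7000 nt; with gene peaks limited to introns, exons, UTRs and TTS these were 2.35% and 78.2%. Past a 3' end lay 2.50% within 1000 nt, 14.6% within 10000 nt and 6.94% for protein-coding genes only, which held 22.9% inside. Within 500 nt, 111, 293, 965 and 810 peaks met the control, let-7a, let-7a and siSfpq, and siSfpq lists. With every cluster counted once, 210 and 220 met the latter pair.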
